A study of Homo sapiens with 12 samples.

Results

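The FOXA1 sites described here lie around SLC45A3, TRPM8, ZBTB16, NDRG1, PMEPA1, CAMKK2 and STEAP4, 7 androgen-responsive genes, in LNCaP, a prostate cancer cell line of human origin that responds to androgen. A site is a region made by merging called peaks that share at least 1 base. It belongs to a gene when a peak centre falls in a fixed hg19 window around that gene, and the 7 windows span 910 kb in all. This gave 117 regions of the 178794 merged from all 12 peak lists, of which 104 held a peak of at least 1 FOXA1 library and 13 were called only with an antibody against the HA tag. No gene annotation of that build was used, so a site's place relative to exons, introns or start sites is not given here.

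By its title the study concerned the stability of FOXA1 protein and its control by Polycomb and by BUB3 with USP7. Chromatin immunoprecipitation with sequencing (ChIP-seq) for endogenous FOXA1 was done after 7 days with 1 µM EPZ-6438 (which inhibits EZH2, the histone methyltransferase of Polycomb), with 3 µM P5091 (which inhibits the deubiquitinase USP7), with both together at these doses (called the combination below), or with DMSO, with 2 libraries each. ChIP-seq for HA was done 5 days after infection in cells with shFoxA1 (a short hairpin against FOXA1) and HA-tagged FOXA1 carrying the K295A substitution, with shFoxA1 and HA-tagged wild-type (WT) FOXA1, with shFoxA1 alone, and with the control vector pGIPZ, with 1 library each. The last 2 carry no HA tag. LNCaP is a single cell line, the labels do not say whether replicate libraries come from separate cultures, and p-values therefore measure only the spread between these libraries.

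FOXA1 is a forkhead pioneer factor that binds nucleosomal DNA and opens chromatin for the androgen receptor, so that many enhancers of androgen-responsive genes in luminal prostate cells carry both proteins. SLC45A3 encodes prostein, a prostate-restricted transporter-family protein. TRPM8 is a cold- and menthol-gated cation channel, and STEAP4 is a metalloreductase. ZBTB16 (PLZF) is a zinc-finger transcriptional repressor. NDRG1 is a stress- and differentiation-linked protein, PMEPA1 a membrane protein that binds NEDD4-family ubiquitin ligases, and CAMKK2 a kinase upstream of AMPK.

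RefSeq promoter sequence (GRCh38.p14, 250 bases before to 50 after a start) was given for 5 of the 7 genes, in 13 promoters. The forkhead core was searched on both strands as the letters TGTTTAC, the letters TATTTAC, the letters TGTTTGC and the letters TATTTGC. At least 1 of these was found in 2 of the 13, against 12.1% of 35116 promoters. The letters AGAACA, the core of androgen receptor elements, were in 3 of 13, against 14.8% of all promoters. The palindrome of 2 such cores (GNACA on the left arm and TGTNC on the right arm, 3 bases apart) was in 0 of 13, against 0.39%. The 2 promoters with forkhead letters are shown 5′ to 3′ with those letters in capitals, because they are the windows near a start that hold the core a forkhead protein reads. They are 1 of the promoters of each gene, at chr2:233953503-233953802 on the plus strand (TRPM8, with 2 matches) and chr20:57710528-57710827 on the minus strand (PMEPA1, with 1 match).
TRPM8: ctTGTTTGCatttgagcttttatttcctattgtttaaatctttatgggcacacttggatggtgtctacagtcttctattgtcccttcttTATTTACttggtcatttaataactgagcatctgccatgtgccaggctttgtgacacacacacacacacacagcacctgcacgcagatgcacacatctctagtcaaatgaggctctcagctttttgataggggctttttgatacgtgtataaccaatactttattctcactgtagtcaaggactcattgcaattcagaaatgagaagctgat
PMEPA1: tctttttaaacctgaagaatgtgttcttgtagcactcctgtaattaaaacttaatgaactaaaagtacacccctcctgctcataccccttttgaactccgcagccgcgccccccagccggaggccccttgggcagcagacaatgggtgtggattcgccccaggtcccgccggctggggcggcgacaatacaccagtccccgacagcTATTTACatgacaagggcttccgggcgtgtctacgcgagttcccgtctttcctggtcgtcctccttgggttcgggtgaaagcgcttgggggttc
These are matches of letters in a window of another build than the peaks, and whether a FOXA1 peak covers either one was not determined.

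Depth ranged from 12299238 to 22589685 tags in the FOXA1 libraries and from 11640056 to 13694090 in the HA libraries. All values are normalized tag counts, the tags in a peak scaled to a library of 1e7 tags. The peak size was set per library. In replicate 1 it was 363 bases in EPZ-6438, 356 in P5091, 365 in DMSO and 279 in the combination. In replicate 2 it was 290, 296, 289 and 274 bases in the same order. The combination thus had the smallest peak size within each replicate number, and the part of peak size in the values was not tested. Combination replicate 1 stood apart: it had 30811 peaks holding 5.26% of its tags, against 68504 to 84423 peaks holding 18.86 to 21.2% in the other 7 FOXA1 libraries. At regions called in all 8 FOXA1 libraries its median value was 15, against 35 to 40.2 in the others. Its part in the results below was not tested beyond the fits without it.

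Occupancy was spread over many sites per gene and was dominated by a few strong ones. ZBTB16 had the most regions, 41, of which 11 were called in all 8 FOXA1 libraries. SLC45A3 had 18 with 5 called in all 8, NDRG1 18 with 2, STEAP4 12 with 3, PMEPA1 11 with 2, TRPM8 10 with 4 and CAMKK2 7 with 2. Per length, SLC45A3 was the densest, with 6.25 such sites per 100 kb, and NDRG1 and PMEPA1 the least dense, with 1.67 each. In all, 29 of the 104 regions with a FOXA1 peak were called in all 8 libraries, which is 27.9% (95% exact binomial interval 19.5 to 37.5%), against 17.2% of the 140823 such regions genome-wide. Only 1 library called 20 of the 104, or 19.2%, against 26.4% genome-wide. The 29 sites had a median mean DMSO value of 52.0, against 38.4 over all regions called in all 8. The windows were placed at chosen genes, so these shares are a description of the loci. Intervals cover counting error only.

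**Figure D1:**
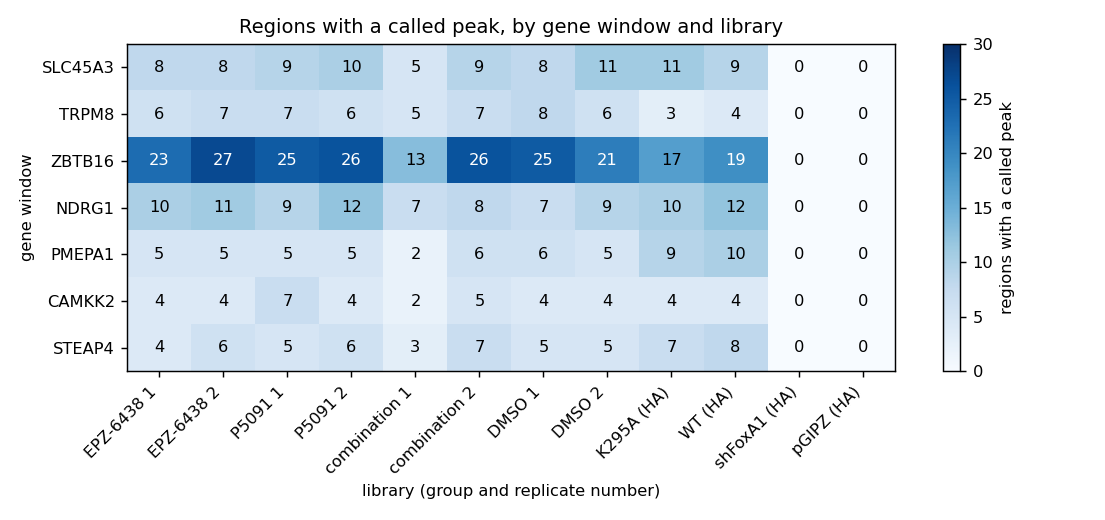
Number of merged regions with a called peak in each gene window (rows) and library (columns, group and replicate number); HA marks the tagged-protein lists. Combination replicate 1 had the fewest FOXA1 regions in the ZBTB16 window (13, against 21 to 27 in the other FOXA1 libraries), and the untagged shFoxA1 and pGIPZ lists had 0 in every window.

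Per library, 60 and 68 of the 117 regions were called with EPZ-6438, 67 and 69 in P5091, 37 and 68 in the combination, and 63 and 61 in DMSO. Combination replicate 1 thus had the fewest, and the other 7 lay between 60 and 69. It was also the single library missing at 12 of the 104 regions, or 11.5%, against 9.59% genome-wide. Across libraries, peak centres at the 29 sites spread over a median of 79 bases and at most 175 bases, within regions with a median width of 418 bases.

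The strongest site of all was at SLC45A3, chr1:205672206-205672593. It had 295.3 and 200.8 in EPZ-6438, 353.6 and 266.3 in P5091, 86.9 and 168.9 in the combination, and 373.7 and 297.8 in DMSO. Both combination libraries were below every other library, both EPZ-6438 libraries were below both DMSO libraries, and the P5091 libraries overlapped DMSO. Such orders, here and at the sites below, are of tag counts not set against the library median. Relative to that median (log2 units), EPZ-6438 replicate 1 (3.04) was above DMSO replicate 2 (3.01). Combination replicate 1 (2.46) was then above EPZ-6438 replicate 2 (2.36). In the DMSO lists it ranked 14th and 27th of all peaks, and it stood 31.4- to 61.2-fold over its local background by the authors' deposited ratio. A second SLC45A3 site at chr1:205668041-205668478 had 81.0 and 88.6 in EPZ-6438, 71.8 and 107.1 in P5091, 32.5 and 87.6 in the combination, and 104.6 and 110.3 in DMSO. The third, at chr1:205634010-205634399, had 96.5 and 60.2 in EPZ-6438, 88.1 and 56.3 in P5091, 23.1 and 49.7 in the combination, and 98.7 and 61.0 in DMSO. There replicate 1 exceeded replicate 2 in each group but the combination, by more than EPZ-6438 or P5091 differed from DMSO. Relative to the library median the combination had the same order as the other groups (0.59 and 0.44).

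ZBTB16 carried the next strongest site, chr11:114049931-114050423. It had 194.3 and 171.6 in EPZ-6438, 179.4 and 205.2 in P5091, 73.1 and 157.0 in the combination, and 209.9 and 177.6 in DMSO. The EPZ-6438 and P5091 values overlapped those of DMSO, and both combination values lay below them. Its second site, chr11:113980044-113980509, had 84.6 and 58.5 in EPZ-6438, 94.6 and 59.3 in P5091, 21.3 and 54.5 in the combination, and 120.7 and 76.6 in DMSO. The third, chr11:114000672-114001077, had 72.6 and 77.2 in EPZ-6438, 88.7 and 84.1 in P5091, 18.1 and 69.4 in the combination, and 64.4 and 95.2 in DMSO. Its DMSO libraries enclosed both EPZ-6438 and both P5091 values.

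At TRPM8 1 site stood above the rest. That site, chr2:234861948-234862354, had 156.3 and 140.7 in EPZ-6438, 188.5 and 151.9 in P5091, 67.5 and 129.4 in the combination, and 179.2 and 173.6 in DMSO. Both EPZ-6438 and both combination libraries were below both DMSO libraries, and the P5091 libraries lay on either side of them. The site at chr2:234831151-234831568 had 23.0 and 22.8 in EPZ-6438, 35.2 and 20 in P5091, 8.75 and 14.2 in the combination, and 51.2 and 25.5 in DMSO. The site at chr2:234839522-234839910 had 31.9 and 35 in EPZ-6438, 30.7 and 29.1 in P5091, 21.9 and 18.9 in the combination, and 38.0 and 37.2 in DMSO. At each of these TRPM8 sites the combination libraries were the lowest pair by tag count. Relative to the library median (log2 units) this did not hold at any of them. Combination replicate 1 then stood at 2.10, -0.71 and 0.52, above EPZ-6438 replicate 2 at 1.85, -0.72 and -0.12. Combination replicate 2 stayed the lowest library at each.

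NDRG1 had a strong site at chr8:134228667-134229132, with 117.3 and 77.2 in EPZ-6438, 166.3 and 90.2 in P5091, 40.6 and 67.9 in the combination, and 160.1 and 93.5 in DMSO. By tag count replicate 1 was above replicate 2 in every group but the combination, and P5091 was close to DMSO in each replicate number. Relative to the library median, replicate 1 was above replicate 2 in the combination too (1.38 and 0.89, log2 units). The other NDRG1 site called in all 8, chr8:134339086-134339508, had 48.3 and 73.2 in EPZ-6438, 60.7 and 62.9 in P5091, 16.9 and 68.7 in the combination, and 61.4 and 50.5 in DMSO. Between them, 2 regions with centres 634 bases apart (chr8:134259066-134259392 and chr8:134259673-134260106) were each called in 5 FOXA1 libraries, both in 2, and 1 or the other in all 8. The caller keeps peaks a minimum distance of 548 to 730 bases apart, set per library. The libraries without a peak in the first region had another peak within that distance, 634 to 704 bases away. Those without a peak in the second had one 601 to 640 bases away, beyond their own distances of 558 to 592. In neither region is a missing peak a measured 0. In all, 25 of the 339 pairs of a region and a FOXA1 library with no peak had another peak of that library within its minimum distance.

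At the remaining genes levels were lower. The top CAMKK2 site, chr12:121665042-121665487, had 84.6 and 69.9 in EPZ-6438, 68.5 and 61.1 in P5091, 18.1 and 65.5 in the combination, and 69.5 and 53.4 in DMSO. EPZ-6438 was above DMSO in both libraries there. The top STEAP4 site, chr7:87921099-87921481, had 52.2 and 38.2 in EPZ-6438, 58.1 and 41.8 in P5091, 20.6 and 49.7 in the combination, and 64.4 and 34.3 in DMSO. The top PMEPA1 site, chr20:56285442-56285865, had 46.5 and 46.3 in EPZ-6438, 49.6 and 34.5 in P5091, 27.5 and 49.7 in the combination, and 52.7 and 38.9 in DMSO. At STEAP4 and PMEPA1 the DMSO values spanned those of EPZ-6438.

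The other sites called in all 8 at these 3 genes were weaker or similar. CAMKK2 chr12:121676273-121676694 had 47.8 and 31.7 in EPZ-6438, 40.4 and 32.7 in P5091, 20.6 and 37.1 in the combination, and 43.9 and 54.0 in DMSO. PMEPA1 chr20:56318750-56319230 had 33.2 and 38.2 in EPZ-6438, 52.8 and 29.1 in P5091, 8.13 and 33.9 in the combination, and 43.9 and 34.3 in DMSO. Its lowest value, in combination replicate 1, was the lowest of any library over the 29 sites. STEAP4 chr7:87911009-87911418 had 27.0 and 35 in EPZ-6438, 29.4 and 44.8 in P5091, 11.3 and 35.5 in the combination, and 26.3 and 43.0 in DMSO. STEAP4 chr7:87934321-87934742 had 16.8 and 23.6 in EPZ-6438, 18.3 and 22.4 in P5091, 8.75 and 26.0 in the combination, and 16.1 and 17.4 in DMSO, and was the weakest of the 29 by mean DMSO value.

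**Figure D2:**
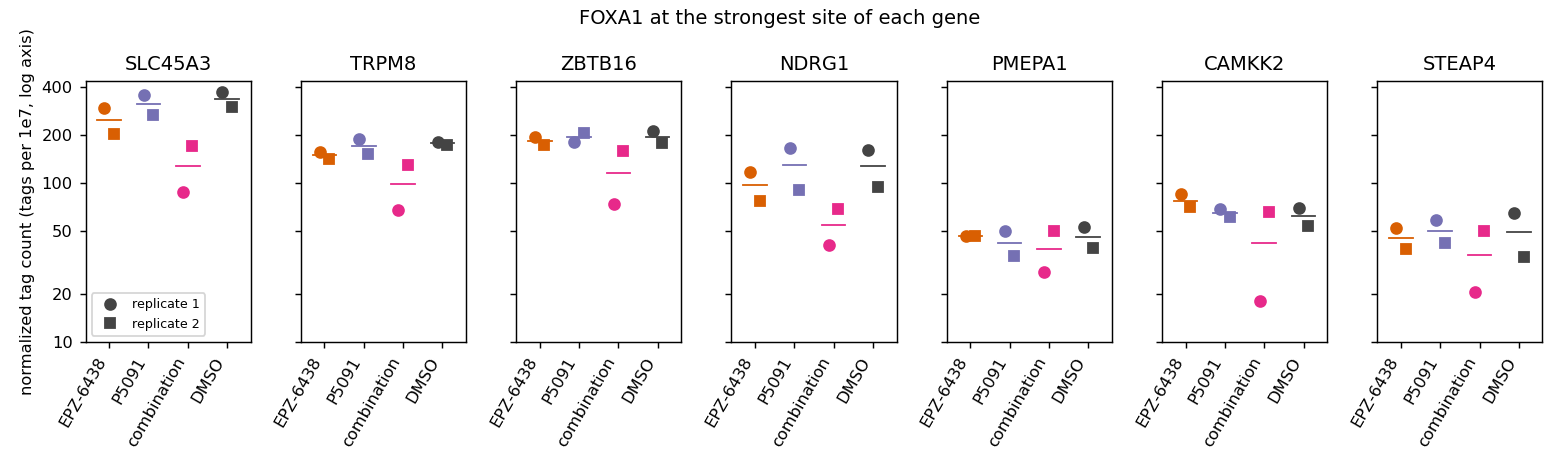
Normalized tag count (log axis) at the strongest site of each gene by treatment; circles are replicate 1, squares replicate 2, and bars the mean of 2 libraries. SLC45A3 is highest in every group, and combination replicate 1 is the lowest library in every panel.

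Whether a drug changed FOXA1 occupancy was tested with limma on log2 (value + 1) at the 24261 regions present in every FOXA1 list, with Benjamini-Hochberg adjustment over all of them at 0.05. With EPZ-6438 against DMSO, 0 of the 29 sites were called, and 0 of 24261 (0%). The counts were again 0 of 29 and 0 of 24261 (0%) for P5091 and for the combination against DMSO. The same held when the 4 libraries given EPZ-6438 were set against the 4 not given it, and when the 4 given P5091 were set against the rest. An unadjusted p under 0.05 was reached by 233 regions (0.96%) for EPZ-6438, 12 (0.0495%) for P5091 and 3418 (14.1%) for the combination against DMSO. The numbers were 2156 (8.89%) with against without EPZ-6438 and 203 (0.837%) with against without P5091. Among the 29 sites these were 0, 0, 8, 4 and 0. The shares for EPZ-6438, for P5091 and with against without P5091 lay below 0.05, the share expected with no effect. This fit was thus conservative there, and 0 calls do not show that occupancy was unchanged. Its median spread per region was 0.59 (log2), against 0.35 with each library centred on its median. With the EPZ-6438 and DMSO libraries alone, limma called 17 of 44880 regions and 0 of the 44 sites then tested. Without the replicate block, edgeR called 0 regions in 4 of these comparisons and 36 (0 of the 29 sites) with against without EPZ-6438.

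The size of the differences varied with treatment. With EPZ-6438 they ran over the 29 sites from -0.81 to 0.47 (log2), with a median of -0.07 against -0.08 over all tested regions. With P5091 they ran from -0.43 to 0.44, with a median of 0.00 against -0.02. With the combination all 29 were below 0, as were 91.9% of all tested regions, but 22 were below 0 with centring and 17 with quantile normalization. The uncentred median was -0.85 against -0.69 over all. Without combination replicate 1 the uncentred median was -0.29 at the 41 sites then tested, against -0.10 over all. With all libraries, each centred on its median and fitted with the replicate block, it was -0.18 at the 29 sites against -0.01 over all regions. The cause of the shift was not tested.

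No single site passed the adjusted threshold in these fits, and those with the smallest p were at ZBTB16 and TRPM8. With EPZ-6438 against DMSO the ZBTB16 site chr11:113902309-113902684 had the smallest p among lower sites, with a difference of -0.81 ± 0.59 (SE; limma adjusted p = 1), and the ZBTB16 site chr11:113907212-113907593 among higher ones, with 0.47 ± 0.59. The same site had the smallest p among higher sites with P5091, at 0.44 ± 0.59. Its values were 77.9 and 88.6 in EPZ-6438, 80.9 and 81.7 in P5091, 26.3 and 75.8 in the combination, and 61.4 and 58.1 in DMSO, so that both EPZ-6438 and both P5091 libraries were above both DMSO libraries. The lowest p with P5091 among lower sites and with the combination was at TRPM8 chr2:234831151-234831568, with -0.43 ± 0.56 (limma adjusted p = 1) and -1.61 ± 0.56 (limma adjusted p = 0.348). With against without EPZ-6438 it was ZBTB16 chr11:113902309-113902684, with -1.04 ± 0.42 (limma adjusted p = 0.556). For P5091 it was ZBTB16 chr11:114068816-114069245, with -0.81 ± 0.43 (limma adjusted p = 0.84).

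Libraries of the same replicate number deviated alike (correlations of 0.148 to 0.488), though the labels do not say what a replicate number is. In a fit added after seeing the data, the number entered as a block and library medians were centred. With it, 3 of the 29 sites were called lower. At the top SLC45A3 site the difference of the combination from DMSO was -0.78 ± 0.17 (limma adjusted p = 0.00537) with this fit, and -1.45 ± 0.55 (limma adjusted p = 0.348) without block and centring. With against without EPZ-6438, that site differed by -0.53 ± 0.12 (limma adjusted p = 0.00376), against -0.89 ± 0.39 (limma adjusted p = 0.556) without. The second ZBTB16 site, chr11:113980044-113980509, differed with the combination by -0.79 ± 0.24 (limma adjusted p = 0.041), against -1.47 ± 0.59 (limma adjusted p = 0.348) without. The ZBTB16 site chr11:113902309-113902684 differed with against without EPZ-6438 by -0.68 ± 0.22 (limma adjusted p = 0.0412). Thus 2 of 29 were called in each of these comparisons, all lower, where 588 (2.42%) and 986 (4.06%) of all tested regions were called lower. The call rates genome-wide in either direction were 4.22% and 7.56%. In EPZ-6438 alone against DMSO, 0 of 29 were called and 167 (0.688%) of all, and in both P5091 comparisons 0 of 29 and 0 of all. edgeR with the block called 1 of the 29 with the combination, the top SLC45A3 site (edgeR adjusted p = 0.00889), against 3.22% of all. With against without EPZ-6438 it called 2, that site (edgeR adjusted p = 0.00493) and ZBTB16 chr11:113902309-113902684 (edgeR adjusted p = 0.0385), against 7.9% of all.

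The calls depended on single libraries. With the blocked and centred fit, the combination left 0 sites called without DMSO replicate 1 or without DMSO replicate 2. It left 1 without either EPZ-6438 library, either P5091 library or combination replicate 1, and 2 without combination replicate 2. The site called without combination replicate 1 was a CAMKK2 site that library lacks, described below. The sites tested numbered 41 without combination replicate 1, 30 without either DMSO library and 29 without any of the others. Regions elsewhere in the genome were also called in each of these fits. The counts of sites, here and in the next comparison, therefore do not show a response particular to these genes. With against without EPZ-6438, 0 were called without EPZ-6438 replicate 2, P5091 replicate 1 or DMSO replicate 2, and 1 without EPZ-6438 replicate 1, P5091 replicate 2 or DMSO replicate 1. There were 2 without combination replicate 1, the CAMKK2 site among them, and 4 without combination replicate 2. Without combination replicate 1, the weak library, the top SLC45A3 site was still called with against without EPZ-6438 (-0.50 ± 0.12, limma adjusted p = 0.00981) but not with the combination against DMSO (-0.71 ± 0.19, limma adjusted p = 0.0604). That last difference is close to the -0.78 with all libraries. At ZBTB16 chr11:113980044-113980509 the difference of the combination from DMSO was -0.79 with all libraries. It was -0.45 without combination replicate 1 and -1.12 without combination replicate 2, so its size moved with the weak library.

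**Figure D3:**
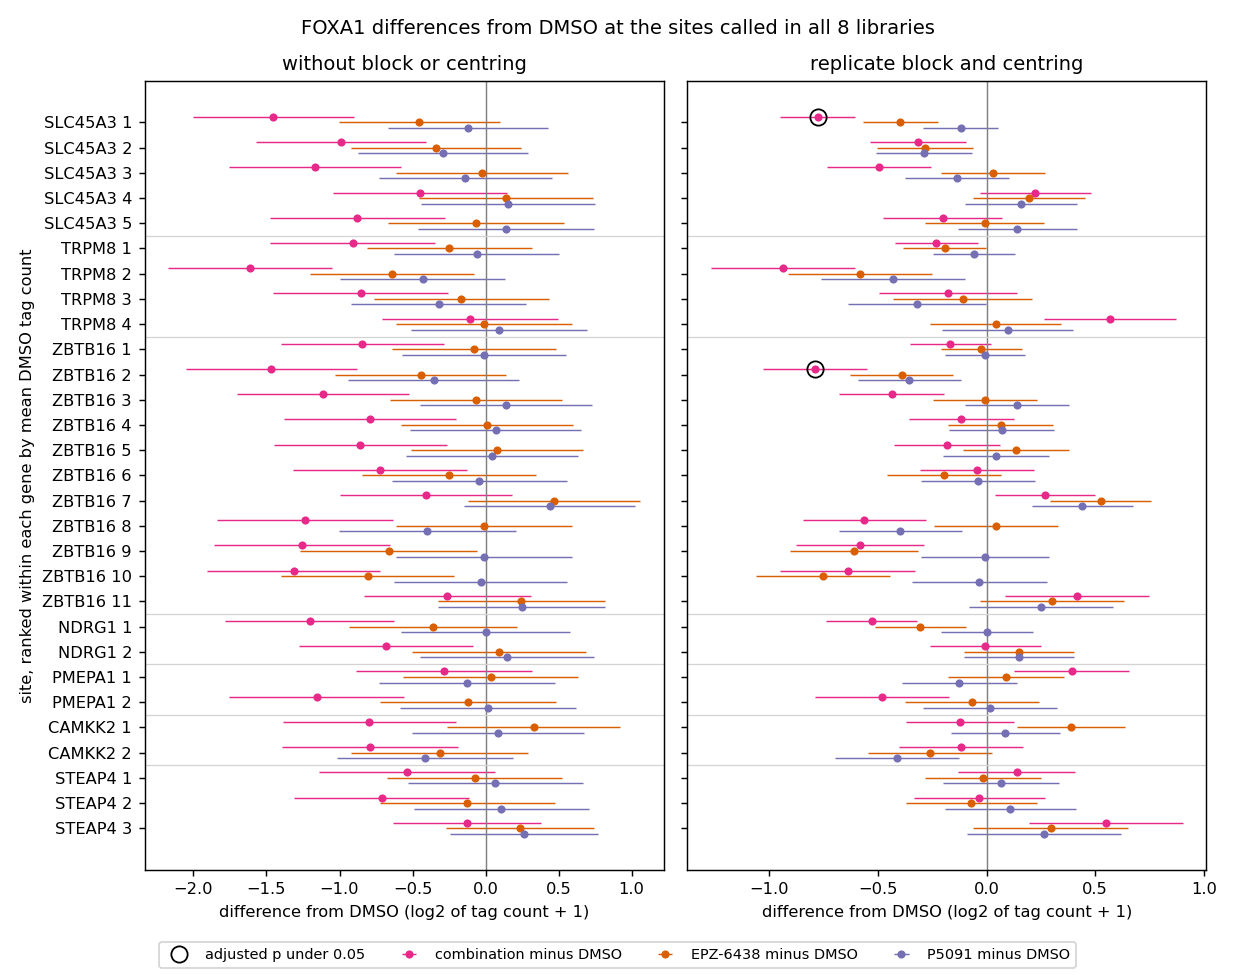
Difference from DMSO in log2 (tag count + 1), with its standard error, at the 29 sites called in all 8 libraries, ranked within each gene by mean DMSO value; left without and right with the replicate block and centring, 2 libraries per group. All 29 combination values on the left lie below 0, against 22 on the right, where 2 circled sites (SLC45A3 1 and ZBTB16 2) have an adjusted p under 0.05.

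Relative to the median of each library, the top SLC45A3 site stood at 3.04 and 2.36 in EPZ-6438, 2.46 and 2.19 in the combination, 3.17 and 2.80 in P5091, and 3.19 and 3.01 in DMSO (log2 units). Within each replicate number both libraries with EPZ-6438 were below both without. This order held at 6 of the 29 sites, against 9.92% of all tested regions. They were the top sites of SLC45A3, TRPM8 and NDRG1, and 3 at ZBTB16. The reverse order held at 2 sites, at PMEPA1 and STEAP4, against 8.75%. The combination was the lowest library of its replicate number at 8 of the 29 sites, against 9.95%. These orders come from the same libraries as the fit and are a description of it.

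**Figure D4:**
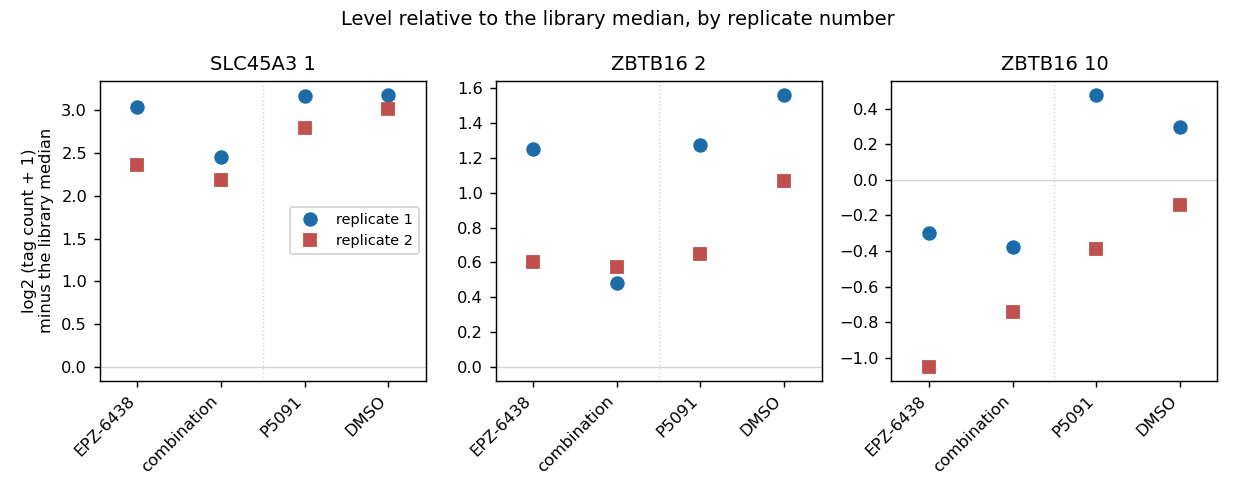
Level relative to the library median (log2 of tag count + 1) at the 3 sites called with the replicate block and centring, with circles for replicate 1 and squares for replicate 2. Left of the dotted line are the libraries with EPZ-6438, right of it those without; within each replicate number those with EPZ-6438 lie lower at every one of these sites.

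Whether the effect of EPZ-6438 differed in the presence of P5091 was tested as an interaction in limma. At the 29 sites 0 were called, with the smallest adjusted p at 0.874, and 0 of the 29 and 158 regions genome-wide reached an unadjusted p under 0.05. edgeR with the replicate block also called 0 regions. Without combination replicate 2, which leaves the weak replicate 1 alone in its group, the fit called 11 of the 29 sites and 5918 regions in all, and 0 of either with the replicate block and centring.

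A CAMKK2 site outside this set, chr12:121737928-121738335, is named after its values were seen. It had 47.8 and 45.5 in EPZ-6438, 73.7 and 48.4 in P5091, 21.3 with combination replicate 2 and no peak in combination replicate 1, and 60 and 69.7 in DMSO. The combination value was the lowest of the 7. Without combination replicate 1, the blocked and centred fit gave -1.43 ± 0.32 against DMSO (limma adjusted p = 0.0147), with the lone library assumed to vary like the other groups. The fit without block and centring, also without that library, gave -1.56 ± 0.41 (limma adjusted p = 0.428).

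Few sites appeared or vanished with treatment. A gain is a region called in both libraries of a treatment and in neither DMSO library, and a loss the reverse. With EPZ-6438 there were 2 gains and 2 losses among 104 regions (1.92% each), against 4.14% and 3.03% genome-wide. With P5091 there were 1 gain (0.962%) and 0 losses, against 2.03% and 2.25%. With the combination there were 3 gains (2.88%) and 4 losses (3.85%), against 0.599% and 5.68%.

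The EPZ-6438 gains were SLC45A3 chr1:205650257-205650642, with 19.5 and 13.0, and ZBTB16 chr11:113966221-113966762, with 14.6 and 13.8. The SLC45A3 region also had a peak in P5091 replicate 2 (12.7) and combination replicate 2 (16.6). The ZBTB16 region also had one in P5091 replicate 1 (18.9). The losses were STEAP4 chr7:87888776-87889258, with 14.6 and 16.3 in DMSO, and ZBTB16 chr11:114137865-114138260, with 11 and 10.4 in DMSO. The P5091 gain was ZBTB16 chr11:114114543-114115018, with 10.4 and 10.9, which also had a peak in EPZ-6438 replicate 1 (13.7). All of these lie well below the median of the sites called in all 8. The highest combination gain was ZBTB16 chr11:114033566-114034032, with 19.4 and 23.7, which also had a peak in EPZ-6438 replicate 2 (38.2) and P5091 replicate 2 (28.4). The second was NDRG1 chr8:134261754-134262189, with 15 and 26.0, where DMSO replicate 2 had another peak 484 bases away, within the caller's minimum distance. The highest combination losses were ZBTB16 chr11:114001670-114002034, with 41.7 and 34.8 in DMSO, and NDRG1 chr8:134246909-134247309, with 32.9 and 21.5 in DMSO. That ZBTB16 region also had no peak in EPZ-6438 replicate 1 or P5091 replicate 1, and that NDRG1 region none in EPZ-6438 replicate 2. Of the 52 regions shared by the DMSO libraries, combination replicate 2 lacked 6 (11.5%), against 14.9% genome-wide.

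HA-tagged FOXA1 was mapped at most of the same sites. The K295A library had a peak at 61 of the 117 regions and the WT library at 66, and the shFoxA1-alone and pGIPZ libraries at 0, with 971 and 982 peaks in all. Of the 52 regions shared by the DMSO libraries, K295A covered 41 (78.8%), against 71.2% genome-wide, and WT 42 (80.8%), against 74.2%. Both covered 39 (75%), against 65%. Of the 29 sites called in all 8 FOXA1 libraries both covered 24 (82.8%, 95% exact interval 64.2 to 94.2%), against 87.2%. The 3 sites with neither were TRPM8 chr2:234831151-234831568 and chr2:234839522-234839910 and ZBTB16 chr11:114067129-114067563. The other 2, ZBTB16 chr11:113902309-113902684 and SLC45A3 chr1:205678125-205678497, had a K295A peak (21.8 and 48.2) and no WT peak. A peak missing from a list is not a measured 0.

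Peaks of tagged protein without any FOXA1 peak made up a smaller share at these genes than genome-wide, with 9 of 61 for K295A (14.8%, against 26.9%) and 10 of 66 for WT (15.2%, against 32.8%). Of the 13 regions without a FOXA1 peak, STEAP4 had 4, PMEPA1 had 3, and no other gene had more than 2. Over the 24 sites called in all 8 with a WT peak, WT and mean DMSO values had a Spearman rho of 0.83 across sites, which share a cell line and peak caller and are not independent replicates.

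At the 53 regions called with both proteins, K295A was on the median lower than WT. Each condition has 1 library, so there is no test and no replicate check. The K295A library had 81607 peaks holding 17.7% of its tags, and the WT library 97120 holding 20.5%. The ratios are scaled by total tags only, and the part of this library difference in them was not tested. The median log2 ratio, K295A over WT, was -0.20 (with quartiles of -0.45 and -0.04), against -0.08 over all 68151 such regions. K295A was below WT at 41 of the 53, against 58.7% of all such regions. At the top SLC45A3 site K295A gave 185.3 and WT 199.2. At the top ZBTB16 site K295A gave 128.1 and WT 141.2. The top TRPM8 site had 94.9 for K295A and 82.4 for WT, and the top NDRG1 site 78.3 for K295A and 68.7 for WT. K295A was thus the lower at SLC45A3 and ZBTB16 and the higher at TRPM8 and NDRG1, and the 95% interval of each of these ratios included 1.

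K295A was at least 2-fold lower at 3 of the 53 and at least 2-fold higher at 0, against 1.82% and 0.694% genome-wide. The counting interval of the ratio lay below 1 at 5 of the 53 and above 1 at 0, against 5.45% and 1.99%. The lowest ratio was at ZBTB16 chr11:114014828-114015384, with 12.1 for K295A and 29.8 for WT, a ratio of 0.405 (95% exact interval 0.211 to 0.741). The others below 1 were ZBTB16 chr11:114068816-114069245 (0.439), PMEPA1 chr20:56252524-56253019 (0.481), STEAP4 chr7:87911009-87911418 (0.542) and SLC45A3 chr1:205668041-205668478 (0.73). The STEAP4 site had 33.9 for K295A and 62.6 for WT. The highest ratio was at ZBTB16 chr11:114020030-114020436, with 27.1 for K295A and 19.8 for WT, a ratio of 1.37 (0.802 to 2.36), an interval that includes 1.

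**Figure D5:**
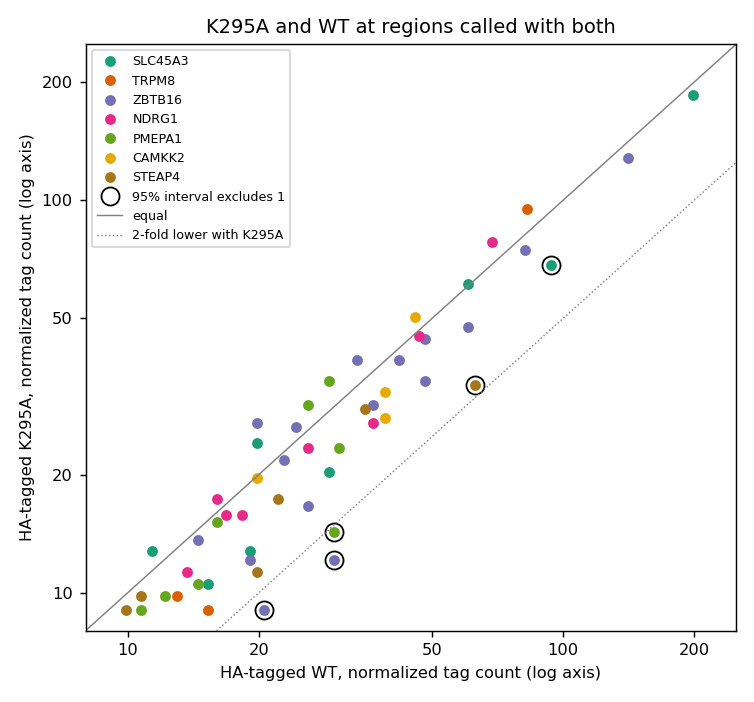
HA-tagged K295A (vertical) and WT (horizontal) normalized tag counts, both on log axes, at the 53 regions called with both; colours mark genes and rings the 5 regions whose 95% interval of the ratio lies below 1. Most points lie just under the line of equal values, and 3 lie at or past the dotted line of 2-fold lower K295A.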

How the data were processed

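ChIP-seq peak lists of 12 LNCaP libraries were analysed. The submitters' processing notes name Bowtie2, HOMER 4.2 and build hg19. Peaks come from findPeaks, run on each library per the file headers (false discovery rate 0.001, at least 4-fold over a local 10 kb window, p of 0.0001), the FOXA1 lists also against 1 input per treatment and the HA lists without input. The deposited normalized tag count is a signal, tags per 1e7. The deposited findPeaks score gave a stricter threshold (20 for FOXA1, 17 for HA). The deposited fold over local background and over input is the caller's ratio. The deposited total tags are a count, given for 3 libraries; tags recovered from the signal were whole for 100% of peaks within print rounding, and were used for edgeR. No per-sample column of another series was present.

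Peaks sharing at least 1 base were merged, and a library took its highest peak in a region. The limma fit (3.58.1, trend, R 4.3.3; edgeR 4.0.16, quasi-likelihood) used log2 (value + 1), 4 groups and no block. Replicate numbers come from the titles: deviations of same-numbered libraries correlated at 0.148 to 0.488 in 6 of 6 pairs of groups, and header fragment lengths differed with the number (replicate 1, 274 to 278 bases; replicate 2, 216 to 230), so blocked fits are given where they change a call. Merging and fits were tested on simulated data. Named sites were the 3 with the highest mean DMSO value per gene, those of smallest p per comparison and direction, the 2 highest gains and losses per comparison, and the highest and lowest K295A over WT ratio with at least 30 tags. Members, lists and tests were chosen with earlier results of these data known. A list of other androgen-responsive genes was not analysed here, since gene positions of hg19 were not used.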

Additional observations from a re-analysis of the deposited data

How the results depend on the processing

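With the settings as reported, 0 of the 29 sites were called in each of the 5 comparisons, and this stayed 0 with centring, quantile normalization, the replicate block alone, a pseudocount of 5, a looser filter (4 of 8 libraries), only the stronger regions, edgeR without block, other merging rules, a score of at least 20, and sums over peaks. With the libraries of a contrast alone, run for the 3 comparisons with DMSO, it was 0 of the 44, 46 and 29 sites then tested. With the replicate block and centring, 2 sites were called for the combination against DMSO and 2 with against without EPZ-6438; edgeR with the replicate block called 1 and 2. No other call among the sites was changed by the block. Leaving out 1 library gave 0 to 24 sites for the combination, 0 to 20 with against without EPZ-6438 and 0 to 13 with against without P5091, the upper ends all without combination replicate 2, which leaves the weak replicate 1 alone in its group. Without combination replicate 2 the median differences over all tested regions were -1.25, -0.66 and -0.60 (log2) in these 3 comparisons. At the 29 sites they were -1.49, -0.78 and -0.64, so the shift was not confined to these sites. Regions elsewhere in the genome were also called in each of these 3 comparisons without combination replicate 2. The upper ends therefore do not show a response particular to these genes. In the blocked and centred fit, an alternative added after seeing the data, leaving out 1 library gave 0 to 2 sites for the combination and 0 to 4 with against without EPZ-6438. Genome-wide the counts of called regions were 0 as reported and, with block and centring, 167, 0, 1025, 1834 and 0 for EPZ-6438, P5091 and the combination against DMSO and with against without EPZ-6438 and P5091. Over the 29 sites, differences below 0 with the combination numbered 29 as reported, 22 with centring and 17 with quantile normalization, and with against without EPZ-6438 29, 19 and 15; with against without P5091 they numbered 29, 18 and 16. Among the differences named in the text, the direction turned at 3, all uncalled: TRPM8 chr2:234831151-234831568 with P5091 was 0.057 without DMSO replicate 1 (-0.92 without DMSO replicate 2), and with quantile normalization the combination gave 0.037 at the top TRPM8 site and 0.11 at the top ZBTB16 site; the cause was not tested. Sites called in all 8 libraries numbered 29 to 41 when 1 library was left out. The tag threshold of a FOXA1 list was 10 to 14, and a site below it was not detectable at this depth.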
